A study of Gallus gallus with 4 samples.

Results

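The 10 genes described here are immediate early genes, which cells switch on within minutes of a growth signal or a stress without first making new protein. They are FOS, FOSL2, JUN, JUND, ATF3, EGR1, DUSP1, NR4A2, NR4A3 and MYC. They were chosen by symbol, since the published account of this exposure centres on FOS, and with earlier results of these data known. The deposited count table of 26296 genes holds all 10. All 10 were among the 16545 genes with enough reads to be tested.

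RNA was sequenced from the trachea of chickens (Gallus gallus) 42 days old. The exposed group lived in a chamber that held 3.5 to 4.5 mg/kg hydrogen sulfide in weeks 0 to 3 and 19.5 to 20.5 mg/kg in weeks 4 to 6, whereas the control chamber received no added gas. There are 2 libraries per group. How many birds a library stands for is not stated in the labels, so p-values measure only the spread between these libraries, and the gas cannot be told apart from other differences between the chambers.

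The proteins of the FOS and JUN families pair through a leucine zipper to form activator protein 1 (AP-1), a transcription factor that binds short DNA elements near genes of inflammation, growth and matrix turnover. MAP kinases, which relay signals from the cell surface, raise transcription of FOS, EGR1 and related genes through serum response factor and its partners, and DUSP1 closes the loop by removing phosphate from those kinases. The NR4A genes encode orphan nuclear receptors that are induced through cyclic AMP and calcium as well. In airway tissue this response is known from inhaled irritants, wounding and mechanical stretch.

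Library totals ran from 16899066 to 22706119 reads, so that counting error is small for genes of this abundance, whose lowest count was 213 reads (NR4A2, control 1). Of 8 markers of ciliated cells in the table, 7 had enough reads to be tested, with the ciliogenesis factor FOXJ1 at 157 to 232 CPM, while PIFO had 0 to 5 reads. CPM here are counts per 1000000 reads with TMM scaling. They are not divided by transcript length, so levels are compared between libraries and not between genes. The libraries differed in tissue makeup. The summed level of 11 cartilage markers was 18631 and 28267 CPM in hydrogen sulfide libraries 1 and 2, and 5639 and 31349 CPM in control libraries 1 and 2. That of 14 skeletal muscle markers was 12085 and 4687 against 10766 and 1864 CPM. In bulk tissue a change in the number of cells of a type cannot be told apart from a change in RNA per cell.

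FOS, JUN, ATF3, EGR1 and DUSP1 were higher in both exposed libraries than in both controls. For 5 of 10 genes to be separated this way compares with 15.3% of all genes tested (2527 of 16545). None of the 10 was separated in the other direction, against 17.2% of all genes. Control 1 was the lowest library for all 10 genes, so none of them could lie below both controls. For the same reason, which genes lay above both controls depended on control 2 alone. No gene of the 10 passed edgeR's quasi-likelihood test after Benjamini-Hochberg adjustment over all genes, and neither did any other gene in the table (0 of 16545, or 0%). At an unadjusted p under 0.05 the same edgeR fit held 904 genes, of which 344 (2.08%) were higher and 560 (3.38%) lower after exposure. FOS and JUN were the 2 members among the 344, and no member was among the 560. DESeq2 called 132 genes of the table, 50 of them higher (0.302%) and 82 lower (0.496%), with no member among them.

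FOS, the AP-1 subunit at the centre of the published account, stood at 360.1 and 305 CPM in hydrogen sulfide libraries 1 and 2. In control libraries 1 and 2 it stood at 121 and 207 CPM. The exposed libraries were closer to each other than the controls were and lay above both controls, and control 1 was the lowest of the 4. The group means were 332 ± 39.2 CPM and 164 ± 60.8 CPM (SD, n = 2 each), a 2.03-fold difference. The log2 fold change was 1.02 with a standard error of 0.31 and a 95% interval from 0.20 to 1.84, which covers this gene alone and is not adjusted (edgeR adjusted p = 0.859, DESeq2 adjusted p = 0.290). Without control 1 the log2 fold change of FOS was 0.69, and without control 2 it was 1.45.

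JUN, the main partner of FOS, had the smallest gap between the controls among the 10 genes. Its levels were 213 and 231 CPM in the exposed libraries and 136 and 167 CPM in the controls. The groups did not overlap, and the gap within each group was narrower than that between them. The log2 fold change of JUN was 0.55 (SE 0.18, 95% interval 0.07 to 1.03, edgeR adjusted p = 0.867). FOS and JUN were the only members of the 10 whose log2 fold change exceeded the log2 gap between the controls. That gap was 0.78 for FOS and 0.30 for JUN. In the other 8 of the 10 the control gap was the larger, against 65.8% of all tested genes.

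ATF3, a stress-induced member of the ATF family that can pair with JUN, stood at 641 and 448 CPM in the exposed libraries and at 156 and 394 CPM in the controls. The groups did not overlap, but hydrogen sulfide 2 lay much nearer to control 2 than control 2 lay to control 1. Its log2 fold change was 0.99 (SE 0.50, edgeR adjusted p = 0.9995), with a 95% interval from -0.33 to 2.303. Without control 1 it was 0.47, and without control 2 it was 1.79. The remaining AP-1 genes overlapped between the groups. FOSL2, which encodes the FOS relative FRA-2, had 76.1 and 106 CPM in the exposed libraries and 30.3 and 121 CPM in the controls, so that the exposed libraries lay between the controls. JUND, the JUN relative that quiescent cells also express, had 78.4 and 62.7 CPM against 46.6 and 83.2 CPM. The log2 fold changes of FOSL2 and JUND were 0.27 (SE 0.67) and 0.12 (SE 0.32). FOSL2 was at 0.58 with limma-voom and 0.56 with the replicate number as a block. Both genes turned negative without control 1, at -0.40 and -0.23, and JUND also without hydrogen sulfide 1, at -0.05.

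**Figure D1:**
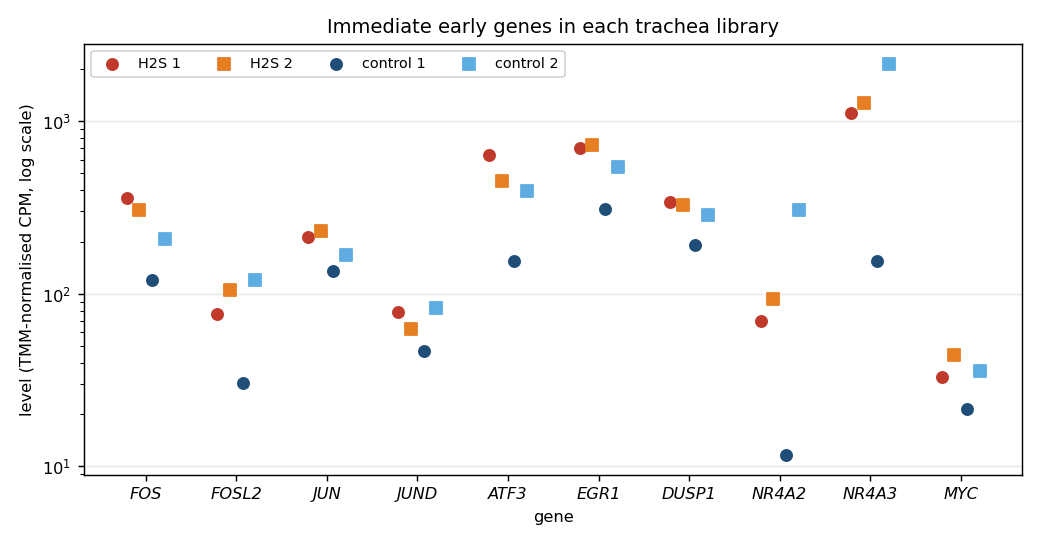
Level of each of the 10 genes (TMM-normalised CPM, log axis) in the 4 trachea libraries, 1 point per library; H2S is hydrogen sulfide. Control 1 is the lowest point for all 10 genes, the exposed points lie above both controls for FOS, JUN, ATF3, EGR1 and DUSP1, and control 2 is the highest point for FOSL2, JUND, NR4A2 and NR4A3.

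EGR1, a zinc finger factor induced with FOS by the same kinases, stood at 698 and 728 CPM in the exposed libraries and at 309 and 541 CPM in the controls. The exposed libraries were nearly equal and higher than both controls. Its log2 fold change was 0.74 (SE 0.32, 95% interval -0.11 to 1.60, edgeR adjusted p = 0.972). DUSP1, the phosphatase that switches off stress-activated MAP kinases, stood at 341 and 328 CPM against 191 and 284 CPM. Its exposed libraries were again nearly equal and higher than both controls, with a log2 fold change of 0.49 (SE 0.25, edgeR adjusted p = 0.9995). Without control 1 the values for EGR1 and DUSP1 were 0.40 and 0.24, and without control 2 they were 1.19 and 0.79.

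MYC, a transcription factor of growth and the cell cycle, stood at 33.0 and 43.9 CPM in the exposed libraries and at 21.4 and 35.5 CPM in the controls. Control 2 lay between the exposed libraries, so the groups overlapped. Its log2 fold change was 0.44 (SE 0.32, edgeR adjusted p = 0.9995). Leaving out control 1 or hydrogen sulfide 2 gave 0.12 or 0.22 for MYC, and leaving out control 2 gave 0.84.

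In the NR4A receptor genes the controls stood far apart. NR4A3 stood at 1117 and 1280 CPM in hydrogen sulfide libraries 1 and 2 and at 154 and 2159 CPM in control libraries 1 and 2. NR4A2 stood at 69.8 and 93.8 CPM against 11.6 and 305 CPM. For both genes the exposed libraries lay between a very low and a very high control, and much closer to each other than the controls did. The controls differed 14.01-fold in NR4A3 and 26.2-fold in NR4A2. Of the 10246 tested genes with a mean of at least 10 CPM, 31 had a larger control gap than NR4A3 and 22 had a larger one than NR4A2. Of the same genes, 50.3% had a smaller gap between the exposed libraries than NR4A3 and 77.6% a smaller one than NR4A2. Between groups, the log2 fold change of NR4A3 was 0.05 (SE 1.14, 95% interval -2.95 to 3.06) and that of NR4A2 was -0.95 (SE 1.35, 95% interval -4.50 to 2.59). Both values depended on the fit. NR4A2 was at 0.46 and NR4A3 at 1.04 with limma-voom, which averages log values, and at 0.40 and 1.05 with the replicate number as a block. NR4A2 was at 2.81 without control 2. The value for NR4A3 was -0.84 without control 1, 2.95 without control 2 and -0.05 without hydrogen sulfide 2, and that for NR4A2 was -1.89 without control 1.

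**Figure D2:**
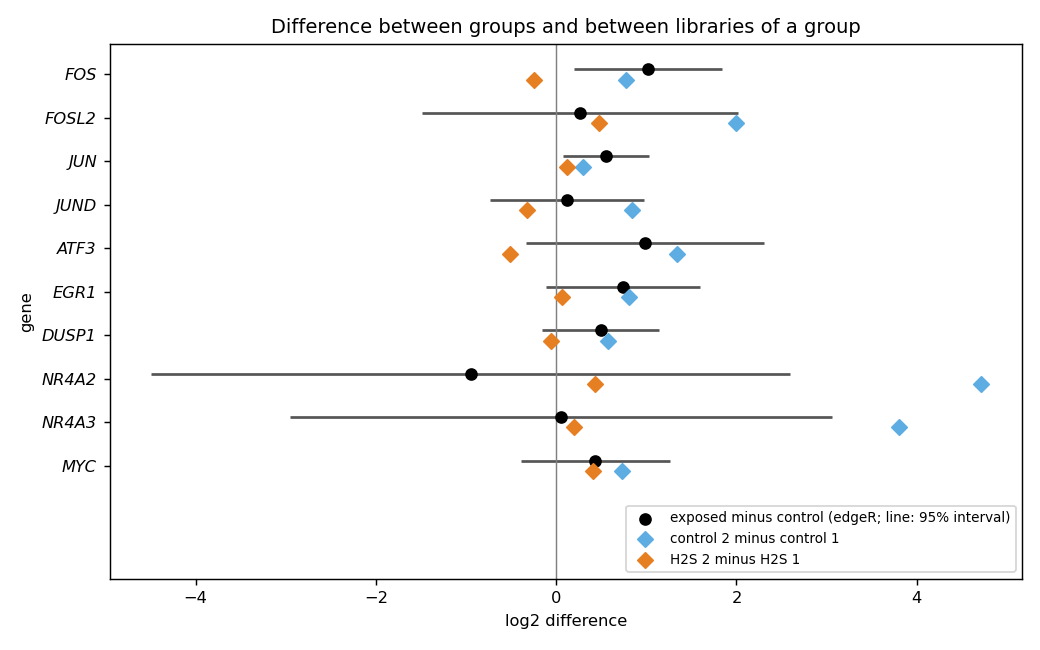
For each of the 10 genes, the log2 fold change between groups (black point, with its unadjusted 95% interval as a line), the log2 gap between the controls (blue diamond) and that between the exposed libraries (orange diamond). The control gap is the wider of the gaps for all 10 genes and exceeds 3.8 for NR4A2 and NR4A3, and the interval of the group difference leaves out 0 for FOS and JUN.

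All 10 genes were lowest in control 1, where 28.7% of all tested genes had their lowest value. In all 10 the controls were also farther apart than the exposed libraries, against 58.7% of all genes. The median log2 gap from control 1 to control 2 was 0.82 over the 10 genes and -0.01 over all tested genes. Set against control 1 alone, both exposed libraries were higher in 10 of 10 genes, which follows from control 1 being the lowest. Set against control 2 alone they were higher in 5 of 10, the same genes that were separated from both controls. Each of these patterns was found in 35.7% of all genes, and for the 10 genes neither adds to the counts already given. The median log2 fold change of the 10 genes was 0.46, with 9 above 0, against a median of 0.01 over all genes, of which 51.6% were above 0. Without control 1 the median of the 10 was 0.18, with 6 above 0, and without control 2 it was 1.32, with all 10 above 0.

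The AP-1 genes were then set against EGR1, DUSP1 and the NR4A genes in each library, by how far each gene's log2 CPM lay from its own 4-library mean, averaged over the genes. The AP-1 average was 0.40 and 0.30 after exposure, and it was -0.87 in control 1 and 0.18 in control 2. The average of the other 4 genes was 0.27 and 0.43 after exposure, and it was -1.59 in control 1 and 0.88 in control 2. The difference between these averages was 0.12 in hydrogen sulfide 1 and -0.13 in hydrogen sulfide 2, where both groups of genes thus stood at about the same height. It was 0.72 in control 1 and -0.71 in control 2. Centring each gene on its own mean makes these differences cancel out over the libraries. With small values after exposure, the controls therefore must have opposite signs and similar sizes. With the NR4A genes left out, the difference between the AP-1 genes and the pair of EGR1 and DUSP1 was 0.07, -0.03, -0.20 and 0.16 in the same order of libraries. The sign in each control was thus turned, and both sizes were smaller than with NR4A2 and NR4A3, whose average was -2.50 in control 1 and 1.75 in control 2.

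**Figure D3:**
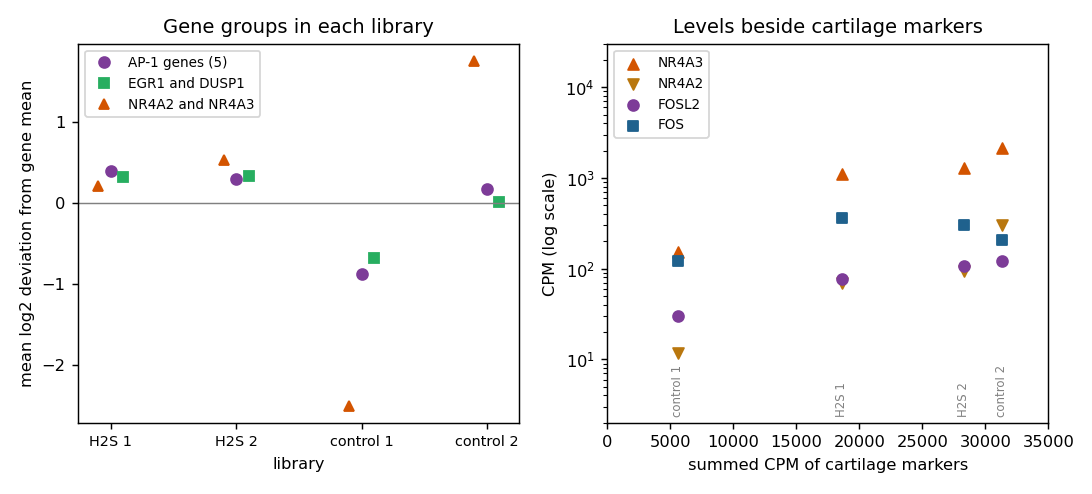
Left, mean log2 deviation of the 5 AP-1 genes, of EGR1 and DUSP1, and of the NR4A pair in each library. Right, CPM of NR4A3, NR4A2, FOSL2 and FOS (log axis) against the summed CPM of 11 cartilage markers, 1 column of points per library; NR4A3, NR4A2 and FOSL2 increase from control 1 to control 2 along the cartilage axis, whereas FOS is highest in hydrogen sulfide 1.

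Cartilage markers moved with the NR4A genes. All 11 tested cartilage markers were lower in control 1 than in control 2, by a median log2 gap of 2.51, and none of them was at 0 in any library. The cartilage matrix genes COL2A1, ACAN and COL9A1 had log2 control gaps of 2.21, 2.77 and 2.33, and the narrowest gap in the list was 0.54, for CILP. The widest were 4.06 for MATN1 and 3.58 for MATN3, which, like CILP, were named after their values were seen. NR4A3, NR4A2 and FOSL2 ranked the 4 libraries in the same order as the summed cartilage level, an order that 7.15% of all tested genes had. These genes were already known to be lowest in control 1 and highest in control 2. The cartilage sum is so too, which left only the order of the exposed libraries open. JUND shared those extremes but had the exposed libraries in the opposite order. The cartilage order was not particular to NR4A3, NR4A2 and FOSL2, since 11 of the 42 other immediate early genes described below had it too. Set per 1000 CPM of summed cartilage markers, NR4A3 was 59.97 and 45.3 after exposure, compared with 27.3 and 68.9 in the controls. NR4A2 on the same footing was 3.74 and 3.32 against 2.06 and 9.72. Both genes had the library order of that sum and a wider span. Dividing by the sum therefore tends to narrow their span and adds nothing to the shared order. FOS, which ranked the libraries in another order, was 19.3 and 10.8 against 21.4 and 6.59. Skeletal muscle markers moved the other way, with 13 of 14 higher in control 1 than in control 2. The part of cartilage or muscle content in these values was not tested.

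Some other marker sums also differed between the groups, some higher and some lower after exposure. Those of smooth muscle, ciliated epithelium, fibroblast, endothelium and erythrocyte markers overlapped between the groups. FOS, ATF3 and DUSP1 ranked the libraries in the same order as the summed level of 6 mucous cell markers, an order found in 3.57% of all tested genes. These genes were already known to lie above both controls after exposure, with control 1 lowest. The mucous sum does so too, which left only the order of the exposed libraries open. Library order was compared with the cartilage and mucous sums alone, and neither comparison was set out in advance. That sum was 852 and 701 CPM in the exposed libraries and 297 and 359 CPM in the controls. It is led by AGR2, which helps to fold mucins, at 419 and 354 CPM against 86.6 and 131 CPM, while the trefoil factor gene TFF2 had 1 read in all. All 5 tested mucous markers had a log2 fold change above 0, against 51.6% of all tested genes, and their median was 1.81. Both exposed libraries lay above both controls in 4 of the 5, against 15.3% of all tested genes. DESeq2 called 2 of the 5 higher, against 0.302% of all tested genes, and edgeR called none. Basal epithelium markers had sums of 1390 and 1767 CPM against 978 and 996 CPM, with 4 genes above and 3 below 0 by log2 fold change. Markers of B and plasma cells were lower in 8 of 8 genes by log2 fold change, with sums of 2436 and 1974 CPM against 12729 and 10870 CPM. T cell markers were lower in 9 of 9 genes by log2 fold change, with sums of 151 and 136 CPM against 193 and 259 CPM. Macrophage and heterophil markers were lower in 6 of 8 by log2 fold change, with sums of 1235 and 881 CPM against 1834 and 1551 CPM. Both exposed libraries lay below both controls in 8 of 8 B and plasma cell markers and in 6 of 9 T cell markers. They did so in 5 of 8 macrophage and heterophil markers, against 17.2% of all tested genes. The part of these cell types in the FOS, ATF3 and DUSP1 levels was not tested.

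Each group also held 1 library with low and 1 with high expression of Z-linked genes. The median log2 deviation over 619 such genes was -0.25 and 0.30 in hydrogen sulfide libraries 1 and 2, and 0.29 and -0.29 in control libraries 1 and 2. The summed level of W-linked genes ran the other way, at 488 and 151 CPM in the exposed libraries and 136 and 489 CPM in the controls. Libraries of the same replicate number thus differed in both. The low and high pairs below are named by the Z-linked level. Within the low pair, FOS was higher in the exposed library by a log2 difference of 0.80, and within the high pair by 1.34. JUN was higher by 0.35 and 0.77, and ATF3 by 0.70 and 1.52. EGR1 was higher by 0.37 and 1.24, and DUSP1 by 0.26 and 0.78. NR4A3 differed in sign, at -0.95 in the low pair and 3.05 in the high pair, as did NR4A2 at -2.13 and 3.01. FOSL2 (-0.67 and 1.80), JUND (-0.09 and 0.43) and MYC (-0.11 and 1.04) differed in sign as well, so that 5 of the 10 genes had the same sign in both pairs. These 5 are the genes whose exposed libraries both lay above both controls. Any pairing of the libraries gives them that sign, so the pairs add no separate evidence for them. The high pair contains control 1, so the larger differences there share that library.

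Beyond the 10 genes, the wider immediate early programme was described from a list of 48 genes, 42 of which were in the table and tested. Of these 42, 28 had a log2 fold change above 0, and their median was 0.08. None passed the edgeR test in either direction. The median was -0.24 without control 1 and 0.60 without control 2. The controls again stood apart, with 35 of 42 genes higher in control 2 than in control 1 (49.1% of all tested genes) and a median log2 gap of 0.90. CTGF, a matrix-associated growth regulator, stood at 419 and 582 CPM in the exposed libraries and at 181 and 706 CPM in the controls. BTG1 and BTG2 restrain proliferation, and their log2 fold changes were 0.05 (SE 0.28) and 0.23 (SE 0.43). Both exposed libraries were above both controls in 5 of the 42 genes, close to the 15.3% of all genes.

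DUSP16, named after its values were seen, was the only gene of the 42 in this list that DESeq2 called. It was higher after exposure, as were the 0.302% of all tested genes that DESeq2 called in that direction. DUSP16 encodes a phosphatase of the JNK and p38 kinases, and stood at 116 and 121 CPM in the exposed libraries and at 51.8 and 53.9 CPM in the controls. The libraries of each group were nearly equal. The log2 fold change of DUSP16 was 1.17 (SE 0.14), with a DESeq2 adjusted p = 3.54e-04 and an edgeR adjusted p = 0.596. EGR4, also named after its values were seen, had the widest control gap in the list, at 0.273 CPM in control 1 and 4.01 CPM in control 2.

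**Figure D4:**
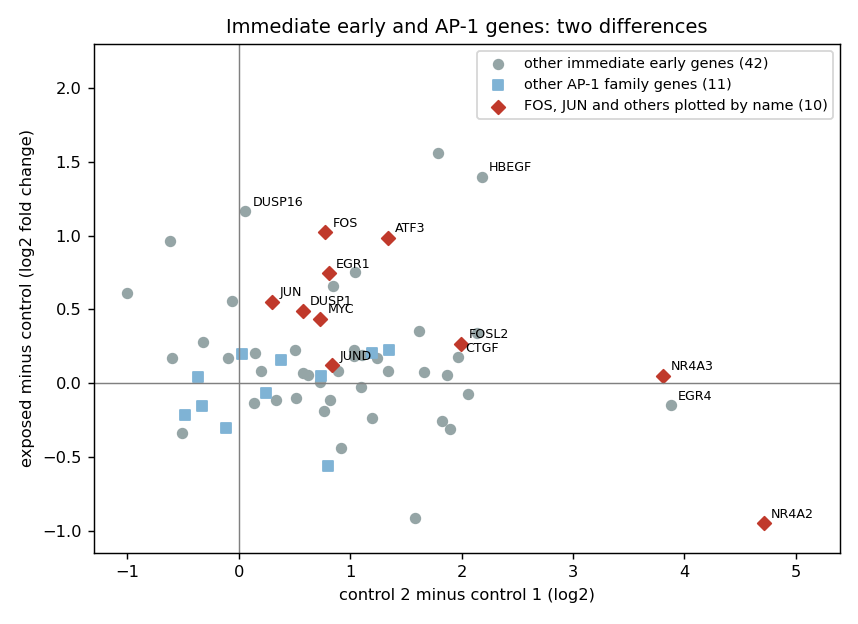
Log2 fold change between groups (vertical axis) against the log2 gap from control 1 to control 2 (horizontal axis), 1 point per gene for the 10 named genes, 42 other immediate early genes and 11 other AP-1 family genes. All 10 red points and 35 of the 42 grey points lie to the right of 0, while DUSP16 sits near 0 on the horizontal axis at a fold change of 1.17.

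The other members of the AP-1 family had a median fold change near 0. Of 15 listed, 11 were in the table and tested, among them ATF and small MAF genes, and FOSB, FOSL1 and JUNB were not analysed here. Their median log2 fold change was 0.05, with 6 above and 5 below 0, and none passed the edgeR test. The median was -0.18 without control 1 and -0.02 without hydrogen sulfide 2. ATF4, the effector of the integrated stress response, stood at 358 and 347 CPM against 274 and 356 CPM. For JDP2, which dimerises with JUN as a repressor, the log2 fold change was 0.20 (SE 0.42), and that of the small MAF gene MAFK was 0.05 (SE 0.28).

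The upstream kinases and promoter-binding factors also had medians near 0. Over 26 tested genes of the ERK, JNK and p38 cascades the median log2 fold change was 0.03, with 17 above and 9 below 0, and none passed the edgeR test. BRAF and MAP3K7 encode kinases at the top of the ERK and the stress cascades, with log2 fold changes of 0.05 (SE 0.31) and 0.17 (SE 0.19). Serum response factor, its partners and the CREB group had a median of 0.03 over 12 genes, and none passed. That median was -0.13 without control 1 and -0.07 without hydrogen sulfide 2. In this group the log2 fold change was -0.10 (SE 0.18) for ELK4, a partner of serum response factor, and 0.04 (SE 0.21) and -0.06 (SE 0.18) for the acetyltransferase genes CREBBP and EP300. These are transcript levels, and kinase activity was not measured.

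Downstream, 15 textbook targets of AP-1 were tested, of which 11 had a log2 fold change above 0, with a median of 0.16 (0.06 without hydrogen sulfide 2, 0.33 without control 2). None passed the edgeR test. Both exposed libraries lay above both controls in 5 of the 15 (15.3% of all genes) and below both in 1 (17.2% of all genes). That 1 gene was TGFB1, a growth factor of matrix production, named after its values were seen, at 12.9 and 14.7 CPM against 20.4 and 18.4 CPM. The interleukin 8 homologue IL8L2 had 135 and 101 reads in the exposed libraries and 29 and 51 reads in the controls, or 6.25 and 4.57 CPM against 1.58 and 3.01 CPM. The groups did not overlap, and the log2 fold change of IL8L2 was 1.24 (SE 0.46, edgeR adjusted p = 0.901). IL8L1 was at 2.22 and 2.58 CPM against 1.75 and 1.89 CPM, with a log2 fold change of 0.40 (SE 0.37). Among the other targets, the hyaluronan receptor CD44, the intermediate filament gene VIM and the collagen cross-linking enzyme LOXL2, differed between groups by log2 values of 0.19 (SE 0.24), 0.16 (SE 0.20) and 0.12 (SE 0.30).

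Partners of the remaining members had medians near 0 as well. Over 10 genes of the MYC network the median log2 fold change was 0.01, with 5 above and 5 below 0, and it was -0.09 without hydrogen sulfide 1. In that network MGA, MXI1 and MXD4, whose products bind MAX or its complexes, differed by log2 values of -0.0015 (SE 0.19), 0.45 (SE 0.37) and 0.04 (SE 0.16). The coregulators of EGR and nuclear receptors had a median of 0.09 over 8 genes, which was -0.16 without control 1. The EGR corepressor gene NAB1 stood at 161 and 203 CPM against 120 and 207 CPM, and the log2 fold change was -0.08 (SE 0.17) for NCOA2 and 0.16 (SE 0.17) for NCOR1, both nuclear receptor coregulator genes. None of the MYC network or of the coregulators passed the edgeR test.

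The genes whose pattern over the 4 libraries was most like that of FOS were found by the distance between mean-centred log2 CPM, where 0 means the same pattern. Among 11918 genes with a mean of at least 5 CPM, the closest with a gene name were ICA1 (distance 0.0725), TENM1 (0.221), GJB2 (0.225), KLHDC7A (0.254) and RPS27A (0.272). Within the 10 genes, EGR1 (0.343) and ATF3 (0.444) were the nearest to FOS, with 16 and 42 genes closer than they were. These counts are over the genes with a mean of at least 5 CPM and include FOS itself. NR4A3 (2.17) and NR4A2 (2.89) were the farthest. The same distance from NR4A3, taken after its values were seen, gave MATN3 (0.284), IL17D (0.363), ITIH6 (0.418), MATN1 (0.521) and CADM2 (0.558) as the nearest named genes, and NR4A2 stood at 0.895. With 4 libraries these distances describe the libraries at hand.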

How the data were processed

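The authors deposited 1 table of raw read counts per gene, with 4 columns, 1 for each library. HISAT2, an alignment program, is named in the submitters' processing notes. The counting program, build, annotation and strand setting were not given in the sources used here, so reads of overlapping or antisense genes cannot be told apart, and no coordinates are given. Genes were taken by symbol, and Z-linked and W-linked genes came from a RefSeq gene table of assembly GRCg7b.

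Counts were filtered with filterByExpr, normalized by TMM and tested with edgeR 4.0.16 under R 4.3.3 by its quasi-likelihood F-test (two-sided, no covariate, 2 residual degrees of freedom), with Benjamini-Hochberg adjustment over 16545 genes and a threshold of 0.05. Standard errors are the absolute log2 fold change over the square root of F, and 95% intervals use the moderated degrees of freedom. Log2 CPM used a prior count of 2. For 1 gene, the smallest p that an exact permutation test allows with these group sizes is 0.333. DESeq2 1.42.0, limma 3.58.1 (voom), other scalings, filters, a replicate block and the removal of each library were tried. Counts of each pair of libraries differed by 69.3 to 121 in chi-square per degree of freedom, so none is a copy of another. The tests were tried on simulated data.

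The members and lists were chosen with earlier results of these data known. From each other list the 3 genes of highest mean CPM were named, together with IL8L1 and IL8L2. An item that this rule takes is left out of the text. Symbols not found in the table were not analysed here, and no promoter or protein sequences were used.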

Additional observations from a re-analysis of the deposited data

How the results depend on the processing

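The count of genes called by edgeR was 0 under each alternative except DESeq2, which called 132, and limma-voom also called 0. The replicate numbers share no stated source, and the deviations of same-numbered libraries had a correlation of -0.00197 across all tested genes and 0.446 across the 10 members. With replicate number as a block edgeR called 0 genes, and 984 genes had an unadjusted p under 0.05 against 904 without it. The median log2 fold change of the 10 genes ranged from 0.18 to 1.32 when a library was left out, the extremes being those without control 1 and control 2, and was 0.39 to 0.57 under the other settings. No member was called under any setting. FOS, JUN, ATF3, EGR1, DUSP1 and MYC kept a log2 fold change above 0 in each. For all of these but MYC, both exposed libraries lay above both controls, so the sign without any 1 library follows from that. NR4A3 went from 0.05 to 1.04 with limma-voom and 1.05 with the replicate block. NR4A2 turned to 0.46 with limma-voom, 0.40 with the replicate block and 2.81 without control 2. When a library was left out, FOSL2 ranged from -0.40 to 1.58, JUND from -0.23 to 0.59, NR4A3 from -0.84 to 2.95 and NR4A2 from -1.89 to 2.81. The AP-1 mean minus that of the other 4 genes turned from 0.12 to -0.081 in hydrogen sulfide 1 with medians in place of means. The causes were not tested. With 2 libraries in each group, and with 1 where a library is left out and assumed to vary like the rest, the spread between libraries, not read depth, limits these values.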
